A study of Mus musculus with 8 samples.

Results

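The genes described here are 35 genes of DNA replication and S phase, taken by name from the 26848 genes of the deposited table: licensing factors, the replicative helicase and its activators, the sliding clamp and its loader, polymerases and primase, Okazaki fragment enzymes, enzymes of nucleotide supply, and regulators of entry into S phase. All 35 were in the table on 1 row each, and all 35 were among the 16006 genes tested. They were measured in RAW264.7, a mouse macrophage-like line that divides in culture, after growth on polyetheretherketone (PEEK), an implant polymer, with a smooth surface (4 libraries) or a surface structured at the nanometre and micrometre scale (4 libraries). No treatment, genotype or culture time is given for either group, and every library comes from the same line. The series title places the comparison in work on implant shape, immune cells and anchoring in bone. The labels speak of biological replicates without naming separate cultures, so the tests rest on the spread among the 4 libraries of each surface, and that spread may be technical. Libraries are called 1 to 4 here. The labels do not say whether a number pairs samples across surfaces, and the main fit did not use it as a pairing.

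Before S phase, Cdc6 and Cdt1 load the ring of Mcm2 to Mcm7, the replicative helicase, onto origins of replication. Cdc45, the GINS complex and Mcm10 then turn the loaded ring into an active helicase. Polymerase alpha and primase lay down primers, replication factor C (the Rfc genes) loads the clamp Pcna, polymerases delta and epsilon extend the strands, and Fen1 and Lig1 trim and join the Okazaki fragments of the lagging strand. Transcription of many of these genes is driven by E2F factors at the passage from G1 to S. In a bulk sample, fewer cells in S phase and less RNA per cell in S phase cannot be told apart.

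The promoters show which members carry letters that E2F factors are known to bind. RefSeq windows of 250 bases before to 50 bases after the start site (build GRCm38.p6) were at hand for 28 of the 35 members, in 33 windows. The words TTTGGCGC, TTTCCCGC, TTTCGCGC and TTTGCCGC were searched on both strands, where overlapping words were each counted. At least 1 of the 4 words stood in 12 of 33 member windows (36.4%), against 2.27% of all 32851 windows and 3.78% of the windows of tested genes. The word CCAAT stood in 57.6% of member windows, 37.4% of all windows and 38.2% of those of tested genes. TTTGAA, the core of the CHR element of mitotic genes, stood in 12.1%, 17.9% and 12.8%, so members were close to tested genes. A match is a description of letters and not a bound site. Stretches of 6 promoters are printed to set genes with differing values side by side: Mcm5, Rfc3 and Gins3 had no overlap between the groups and were higher on structured PEEK, Cdt1 was lower, and Uhrf1 and Pold1 were close to level. Capitals mark the E2F words, and each stretch reads 5′ to 3′ on the strand of the gene.

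Mcm5, chr8:75109326-75109397, plus strand: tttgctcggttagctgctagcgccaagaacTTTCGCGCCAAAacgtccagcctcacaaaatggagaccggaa
Rfc3, chr5:151651171-151651248, minus strand: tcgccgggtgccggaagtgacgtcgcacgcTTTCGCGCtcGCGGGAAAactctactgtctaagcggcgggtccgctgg
Gins3, chr8:95633488-95633555, plus strand: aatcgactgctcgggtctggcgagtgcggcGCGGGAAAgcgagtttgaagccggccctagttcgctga
Cdt1, chr8:122568017-122568064, plus strand: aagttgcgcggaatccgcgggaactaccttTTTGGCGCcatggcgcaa
Uhrf1, chr17:56304098-56304165, plus strand: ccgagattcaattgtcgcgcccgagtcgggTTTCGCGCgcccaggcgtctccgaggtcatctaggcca
Pold1, chr7:44548766-44548806, minus strand: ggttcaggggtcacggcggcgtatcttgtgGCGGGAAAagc

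Counted from the RefSeq start site, the 2 words of Mcm5, which overlap, begin at -153 and -149. The 2 words of Rfc3, which do not overlap, begin at -10 and 0. The 12 members with such a word had a median log2 fold change of 0.085 (from -0.10 to 0.20), and the 16 with a window but no word had 0.11 (from -0.096 to 0.23). The windows of Fen1 and Pcna, described further on, held none of the 4 words. The word of Uhrf1 stood in the window 56304063 to 56304362, and its window at the start of the gene, 56303087 to 56303386, held none. The other members with a word were Mcm3, Mcm6, Mcm7, Lig1, Cdc6 and Pola1.

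Levels per gene length are given as the authors' FPKM (fragments per kilobase of gene, scaled to library size). Averaged over the 8 libraries, Pcna was the most abundant member at 192 FPKM, followed by Mcm5 (103.7), Mcm3 (100.3), Rrm2 (90.7) and Uhrf1 (77.8). Mcm5 and Mcm3 did not differ beyond their spread on smooth PEEK, at 99.1 ± 4.66 and 97.5 ± 4.77 FPKM (SD, n = 4). Lowest were Pola1 (8.14), Prim2 (8.80), Tyms (9.43) and Pole (9.72). The median member stood at 19.8 FPKM, and the median of all tested genes at 3.64. Counts of the members ran from 1818 to 35842 per library, in totals of 64479829 to 73098735, so none was limited by low counts.

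**Figure D1:**
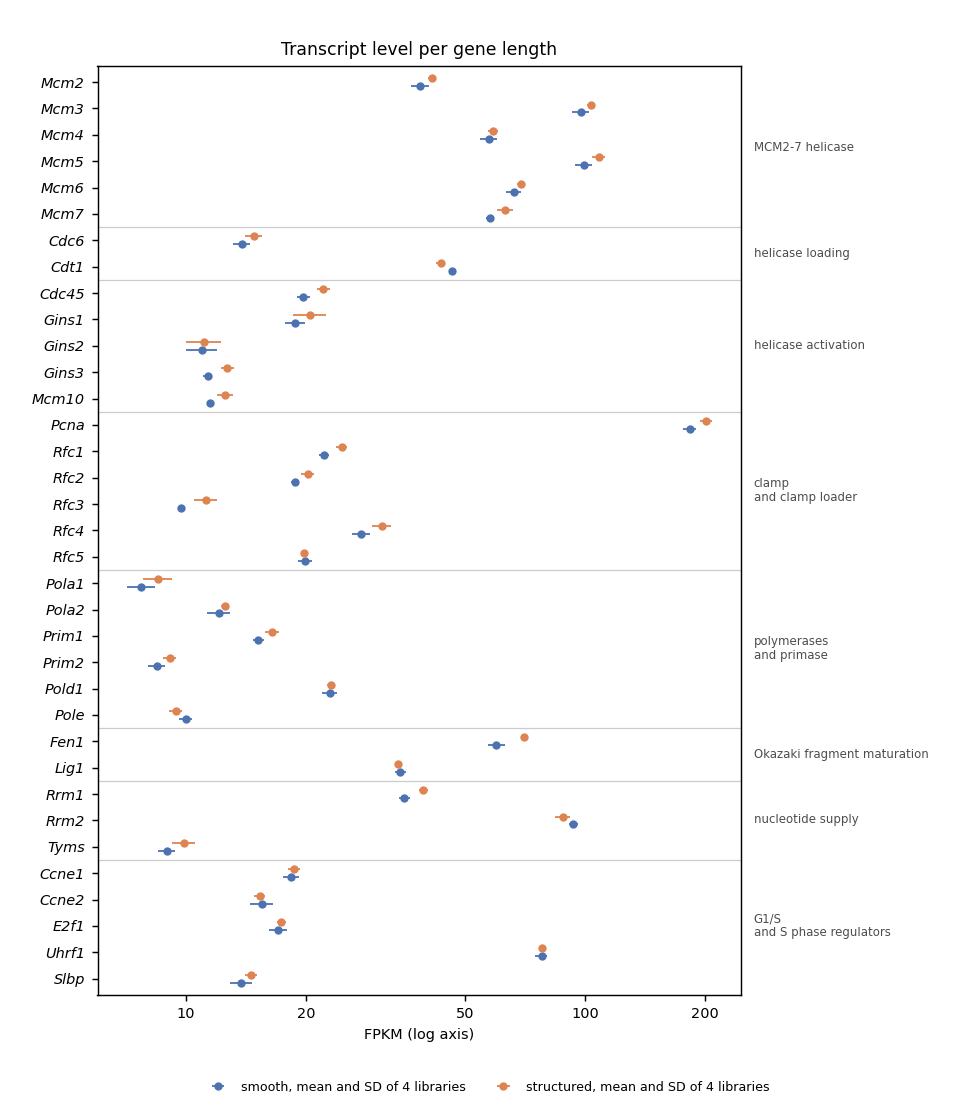
Levels of the 35 genes in FPKM on a log axis, grouped by sub-complex. Points are means and bars SDs of 4 smooth (blue) or 4 structured (orange) libraries. Pcna lies highest and Pola1 and Prim2 lowest, and the shift between surfaces is small beside the range between genes.

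Differences between the surfaces were small. Of the 35 members only Fen1 passed the test across all genes, and it rose (edgeR quasi-likelihood test, Benjamini-Hochberg adjusted p under 0.05), where 1.01% of all tested genes were called higher and 2.75% lower. No member was called lower by edgeR, DESeq2 or voom. At an unadjusted edgeR p under 0.05, 15 members were higher and 2 lower, beside 8.14% and 10.6% of all tested genes. In counts scaled to library size (CPM), the 4 structured libraries all lay above the 4 smooth ones for 10 members (5.19% of tested genes) and all below for 1, Cdt1 (7.03%). The log2 fold change was above 0 for 28 members, against 51.2% of tested genes. Its median was 0.094 over the members and 0.0056 over all tested genes, and every member differed by less than 1.2-fold. DESeq2 called 8 members higher, namely Fen1, Rrm1, Pcna, Cdc45, Rfc3, Rfc1, Mcm5 and Mcm7, where it called 3.45% of tested genes higher.

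**Figure D2:**
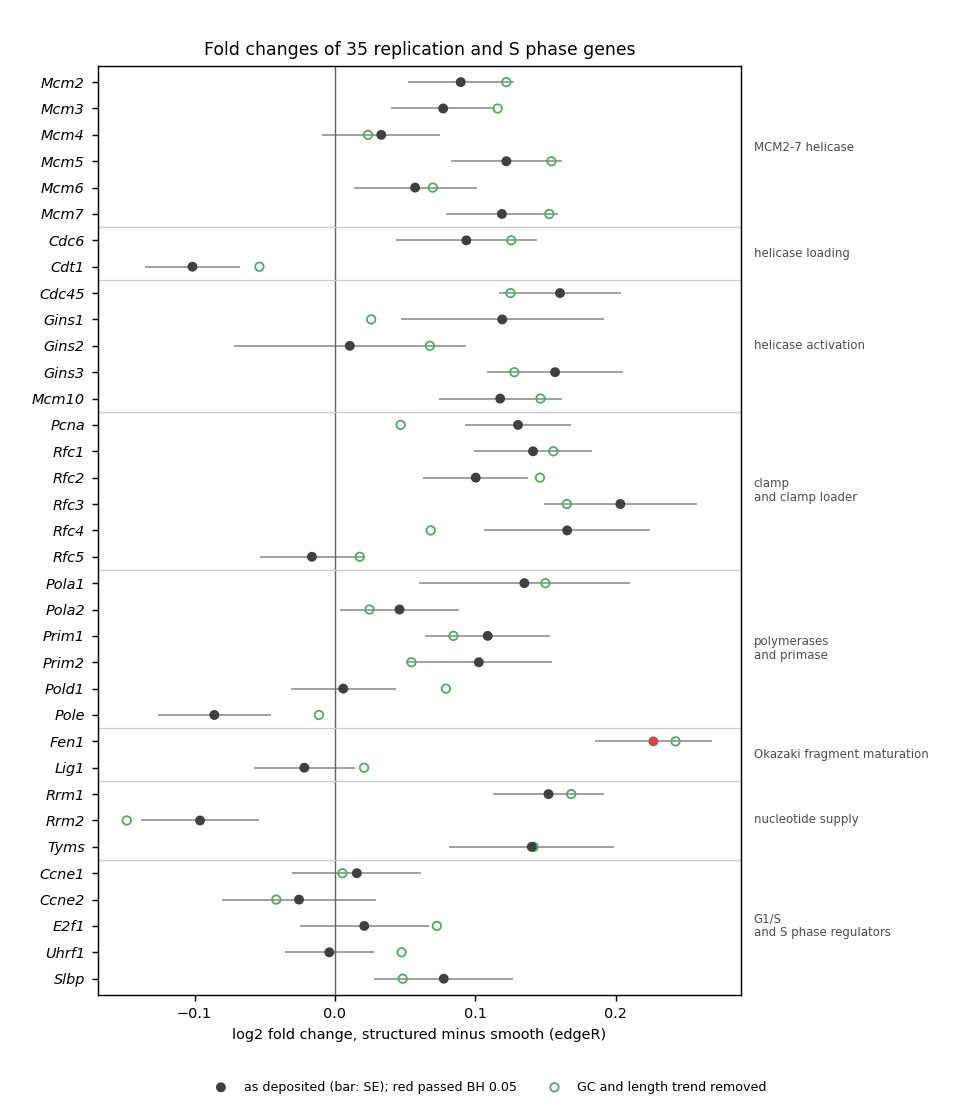
Log2 fold changes (structured minus smooth, edgeR) of the 35 genes with SE bars, red where the adjusted p was under 0.05, and open green circles for the fit with the trend on GC content and transcript length removed. Fen1 alone is red, 28 filled points lie right of 0, and the 5 regulators at the bottom lie between -0.026 and 0.078.

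Fen1, the flap endonuclease that trims Okazaki fragments and also acts in base excision repair, lies on chromosome 19, 10199132 to 10204169, minus strand (ENSMUSG00000024742). It stood at 150.4, 165.4, 158.3 and 147.5 CPM in smooth 1 to 4 and at 184, 182.6, 177.3 and 183.5 CPM in structured 1 to 4. All structured values exceeded all smooth values, and the structured libraries were the closer together. Mean Fen1 rose from 155.4 ± 8.08 to 181.9 ± 3.11 CPM (SD, n = 4), which is 0.23 ± 0.042 on the log2 scale (SE, edgeR BH-adjusted p = 0.0186). The adjusted p was 0.0509 without smooth 4, 0.0610 without structured 2 and 0.0673 without structured 4, at log2 fold changes of 0.20, 0.22 and 0.22.

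An antisense gene, Gm10143, covers 78.8% of the exon bases of Fen1 on the opposite strand in GENCODE M21. The libraries mark the strand, but whether the authors' counter used it is not given in the sources used here, so reads of the pair may have been split between them. Gm10143 stood at 8.32, 3.90, 3.02 and 4.55 CPM in the smooth libraries and 1.79, 3.35, 3.57 and 1.52 CPM in the structured ones, with overlapping groups and a log2 fold change of -0.95 ± 0.35 (SE, edgeR adjusted p = 0.157). With the counts of Fen1 and Gm10143 summed, the log2 fold change of Fen1 was 0.20 (edgeR BH-adjusted p = 0.0214). Tmem258, also on the opposite strand, covers 5.37% of the exon bases of Fen1 and was not part of that sum. It went from 32.6 ± 1.79 to 38.5 ± 5.29 CPM (SD, n = 4; log2 fold change 0.24; edgeR BH-adjusted p = 0.158).

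Lig1, the ligase that seals the nick left by Fen1, was at -0.022 ± 0.036 on the log2 scale (SE), and at 0.021 after removal of the GC and length trend. The ratio of Fen1 to Lig1 FPKM was 1.74, 1.78, 1.74 and 1.70 in smooth 1 to 4 and 2.06, 2.10, 2.04 and 2.06 in structured 1 to 4. Its mean was 1.74 ± 0.036 on smooth and 2.07 ± 0.027 on structured PEEK (SD, n = 4). A ratio within a library does not depend on library scaling, and the groups did not overlap. It is 1 of 7 partner ratios computed after values had been seen, and all are given as descriptions with no test.

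The helicase genes all had positive values, and none passed the test. The median log2 fold change of Mcm2 to Mcm7 was 0.083, with 0.090 for Mcm2, 0.077 for Mcm3, 0.033 for Mcm4, 0.12 for Mcm5, 0.057 for Mcm6 and 0.12 for Mcm7. Mcm5 (chromosome 8, 75109569 to 75128439) stood at 436.9, 435, 415 and 405 CPM in the smooth libraries and 476, 471, 437.3 and 458 CPM in the structured ones, where smooth 1 and structured 3 nearly met. Its log2 fold change was 0.12 ± 0.040 (SE, edgeR adjusted p = 0.116). Mcm7 (chromosome 5, 138164583 to 138172422), which hosts a microRNA cluster in an intron, stood at 269, 273, 285 and 269 CPM in the smooth libraries and 307, 301, 278 and 303 CPM in the structured ones. Only structured 3 fell within the smooth range (0.12 ± 0.040; adjusted p = 0.127).

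Subunit shares moved by less than 1 percentage point on average. Of the summed FPKM of the 6 helicase genes, Mcm5 held 23.8% on smooth and 24.4% on structured PEEK, Mcm3 23.4% and 23.2%, and Mcm2, the least abundant, 9.28% and 9.30%. The sum itself was 424, 426, 418 and 399 FPKM on smooth and 452, 442, 436 and 445 on structured PEEK. These sums did not overlap between the groups. Mcm4 was at 0.0091 without smooth 4, 0.022 without smooth 1 and 0.069 without smooth 2, and Mcm6 was at 0.019 without smooth 1. With smooth 1, structured 3 and structured 4 left out together, a choice made after the data had been seen, Mcm4 and Mcm6 went to -0.0012 and -0.0024.

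The 2 helicase loaders differed in sign. Cdt1, which brings the helicase to origins and is degraded in S phase, lies on chromosome 8, 122568015 to 122573128. It stood at 156, 158, 157 and 153 CPM in the smooth libraries and 147, 145, 149 and 140.5 CPM in the structured ones, and every structured library lay below every smooth one. The log2 fold change was -0.10 ± 0.034 (SE, edgeR adjusted p = 0.123), and -0.054 after removal of the GC and length trend. Cdc6, its ATPase partner in loading, had 0.094 ± 0.050. The ratio of Cdc6 to Cdt1 FPKM was 0.297 ± 0.0107 on smooth and 0.341 ± 0.0234 on structured PEEK (SD, n = 4). Structured 3, at 0.307, fell inside the smooth range of 0.283 to 0.309, and the other structured libraries were at 0.345 to 0.358.

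Among the helicase activators, all 5 log2 fold changes were positive, with a median of 0.12. Cdc45, which binds the helicase ring (chromosome 16, 18780447 to 18811972), stood at 75.0, 70.9, 76.4 and 73.4 CPM in the smooth libraries and 83.4, 85.3, 77.7 and 84.1 CPM in the structured ones. Its groups did not overlap, with structured 3 closest to the smooth libraries (0.16 ± 0.044; edgeR BH-adjusted p = 0.0684). Exons of Ufd1 cover 5.96% of the exon bases of Cdc45 on the opposite strand. Ufd1 had a log2 fold change of 0.15 (edgeR BH-adjusted p = 0.183). Gins3, a GINS subunit (chromosome 8, 95633453 to 95645060), stood at 31.7, 32.2, 33.7 and 34.1 CPM in the smooth libraries and 38.5, 36.4, 36.3 and 35.6 CPM in the structured ones. These groups did not overlap either (0.16 ± 0.048; edgeR BH-adjusted p = 0.0995).

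Mcm10, which joins the helicase and polymerase alpha, stood at 91.2, 96.1, 94.8 and 96.9 CPM in the smooth libraries and 104, 109, 96.9 and 101 CPM in the structured ones. Structured 3 lay just below the highest smooth library (0.12 ± 0.044; edgeR BH-adjusted p = 0.167). Gins1 had a log2 fold change of 0.12 ± 0.072, which was 0.026 after removal of the GC and length trend, and Gins2 had 0.011 ± 0.083, the largest SE of all members. Exons of Gse1 on the opposite strand cover 67.3% of the exon bases of Gins2, and Gse1 fell from 44.0 ± 4.76 to 34.0 ± 1.77 CPM (SD, n = 4; log2 fold change -0.37; edgeR BH-adjusted p = 0.0254). Whether reads of this pair were told apart by strand is not known, so the value of Gins2 is uncertain.

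Clamp and clamp loader genes had the most members higher at an unadjusted edgeR p under 0.05, 5 of 6, beside 8.14% of all tested genes. None of the 6 passed the adjusted test. Their median log2 fold change was 0.14, and 0.11 after removal of the GC and length trend. Pcna, the clamp (chromosome 2, 132249162 to 132253314), stood at 480, 473, 449 and 473 CPM in the smooth libraries and 512, 529, 485 and 525 CPM in the structured ones, without overlap. Its log2 fold change was 0.13 ± 0.038 (SE, edgeR adjusted p = 0.0833), and 0.047 after removal of the GC and length trend (edgeR adjusted p = 0.516). The pseudogene Pcna-ps2, whose reads may be shared with Pcna, was at 4.76 ± 0.570 and 5.15 ± 0.434 CPM.

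Rfc3, a small loader subunit (chromosome 5, 151642756 to 151651242), had the largest log2 fold change of the loader genes and the lowest CPM. It stood at 37.0, 38.0, 37.6 and 37.7 CPM in the smooth libraries and 45.03, 46.5, 39.9 and 41.7 CPM in the structured ones. The smooth libraries were nearly identical (37.6 ± 0.417 CPM, SD), and structured 1 and 2 lay above structured 3 and 4 (0.20 ± 0.054, SE; edgeR BH-adjusted p = 0.0649). Rfc1, the large subunit (chromosome 5, 65261850 to 65335621), stood at 135, 144, 149 and 144 CPM in the smooth libraries and 152, 166, 154 and 159 CPM in the structured ones, also without overlap (0.14 ± 0.042; edgeR BH-adjusted p = 0.0895). Rfc4 stood at 41.8, 44.3, 46.5 and 48.2 CPM in the smooth libraries and 48.1, 54.9, 49.0 and 50.8 CPM in the structured ones. Smooth 4 and structured 1 met (0.17 ± 0.059; edgeR BH-adjusted p = 0.150), and the log2 fold change was 0.068 with the trend removed.

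Rfc2 had a log2 fold change of 0.10 ± 0.037 and no overlap between the groups, while Rfc5 had -0.016 ± 0.037, and 0.018 with the trend removed. Exons of Eif4a2 overlap 12.7% of the exon bases of Rfc4 on the opposite strand, those of Lat2 15.1% of Rfc2 and those of Wsb2 10.7% of Rfc5. Eif4a2 went from 212.6 ± 10.4 to 238.6 ± 10.8 CPM (SD, n = 4), a log2 fold change of 0.17. Lat2 had -0.034 and Wsb2 -0.075. Whether reads of these pairs were told apart by strand is not known. Of the summed FPKM of the 6 clamp and loader genes Pcna held 65.0% on smooth and 65.3% on structured PEEK. The share of Rfc3 was 3.46% and 3.65%, and that of Rfc5 was 7.09% and 6.43%.

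No gene of the polymerases and primase separated the surfaces. Pold1, the catalytic subunit of polymerase delta (chromosome 7, 44532746 to 44548847), was the most abundant of them at 122, 124, 115 and 117 CPM in the smooth libraries and 122, 121, 119 and 116 CPM in the structured ones. The groups lay over each other (0.0059 ± 0.037, SE; edgeR BH-adjusted p = 0.960). The log2 fold change was 0.079 after removal of the GC and length trend (edgeR adjusted p = 0.240). Its sign changed when smooth 3, smooth 4, structured 1 or structured 2 was left out. Pole, the catalytic subunit of polymerase epsilon, had -0.086 ± 0.040, which was -0.011 after removal of the GC and length trend. The ratio of Pold1 to Pole FPKM was 2.30 ± 0.101 on smooth and 2.45 ± 0.053 on structured PEEK (SD, n = 4), and its lowest structured value (2.40) lay just above its highest smooth value (2.39).

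Pola1 and Pola2, subunits of polymerase alpha, had log2 fold changes of 0.13 ± 0.075 and 0.046 ± 0.042. The primase subunits Prim1 and Prim2 had 0.11 ± 0.044 and 0.10 ± 0.052. Ratios of Pola1 to Pola2 and of Prim1 to Prim2 overlapped between the groups, at 0.644 ± 0.0897 against 0.681 ± 0.0524 and at 1.80 ± 0.124 against 1.81 ± 0.131 (SD, n = 4). The summed FPKM of the 6 genes ran from 75.0 to 78.3 on smooth and from 77.2 to 81.0 on structured PEEK.

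Ribonucleotide reductase, which makes deoxyribonucleotides, had its subunit genes on either side of 0. Rrm1, the large subunit (chromosome 7, 102441695 to 102469771), stood at 391.5, 415, 424 and 432 CPM in the smooth libraries and 459, 483, 456 and 449.9 CPM in the structured ones. The groups did not overlap, and the log2 fold change was 0.15 ± 0.040 (SE, edgeR adjusted p = 0.0597), the second lowest p of the members. Rrm1 passed the threshold in several other fits, at an adjusted p of 0.0493 with voom, 0.0430 with a minimum count of 50, 0.0454 with counts divided by 4, 0.0268 after removal of the GC and length trend and 0.00211 with DESeq2. It did not pass with no filter on low counts (0.109), on log2(FPKM + pseudocount) (0.0512 to 0.0550) or in any fit with 1 library left out (0.0699 to 0.182). Nor did it pass with the library scaling of DESeq2 in edgeR (0.0537) or with the replicate number as a block (0.0804).

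Rrm2, the small subunit, whose level follows S phase (chromosome 12, 24708241 to 24714146), stood at 269, 278, 289.9 and 272 CPM in the smooth libraries and 245, 268, 271 and 254 CPM in the structured ones. Structured 3 overlapped smooth 1 (-0.096 ± 0.042; edgeR BH-adjusted p = 0.247), and the value was -0.15 with the trend removed. The ratio of Rrm1 to Rrm2 FPKM was 0.366, 0.376, 0.368 and 0.399 in smooth 1 to 4 and 0.471, 0.454, 0.424 and 0.446 in structured 1 to 4. The groups did not overlap, and the mean went from 0.378 ± 0.0152 to 0.449 ± 0.0197 (SD, n = 4). Tyms, the thymidylate synthase, had 0.14 ± 0.059.

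**Figure D3:**
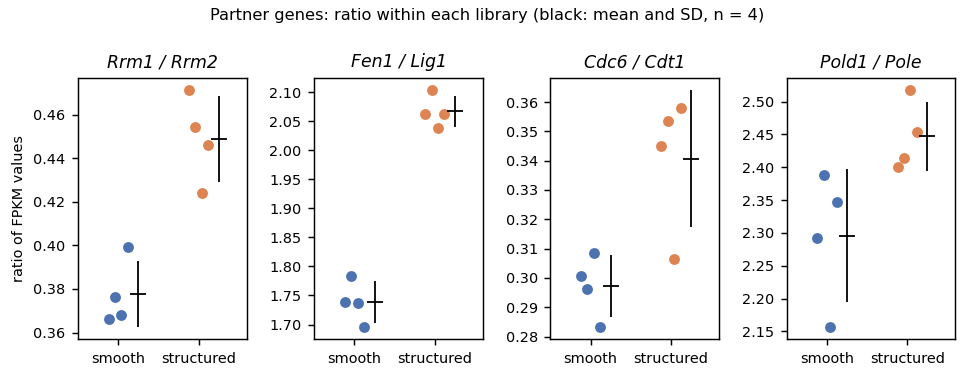
Ratio of FPKM values of partner genes within each library, for 4 of the 7 pairs, with a separate axis per pair that does not start at 0. Coloured points are libraries, and black marks are means with SD bars (n = 4 per surface). Structured libraries lie above all smooth ones for Rrm1 to Rrm2, Fen1 to Lig1 and, narrowly, Pold1 to Pole, and overlap for Cdc6 to Cdt1.

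The regulators of G1/S and S phase were close to level, with a median log2 fold change of 0.016 and overlapping groups for all 5. Uhrf1, which recruits the maintenance DNA methyltransferase to replicated DNA (chromosome 17, 56303321 to 56323486), was the most abundant at 365, 354, 349 and 349 CPM in the smooth libraries and 352, 352, 359.5 and 349.9 CPM in the structured ones. The groups coincided (-0.0040 ± 0.032, SE; edgeR BH-adjusted p = 0.968). The cyclin genes Ccne1 and Ccne2 had 0.016 ± 0.046 and -0.026 ± 0.055, and their ratio was 1.19 ± 0.0789 on smooth and 1.22 ± 0.0477 on structured PEEK (SD, n = 4). Exons of Ints8 cover 17.4% of the exon bases of Ccne2 on the opposite strand, and Ints8 had a log2 fold change of 0.12. E2f1, a transcription factor of S phase genes, had 0.021 ± 0.046, and Slbp, the histone mRNA stem-loop binding protein, had 0.078 ± 0.050. With the GC and length trend removed Uhrf1 had 0.048 and E2f1 0.073.

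Structured 3 lay nearest to the smooth libraries. It held the lowest of the 4 structured values for 18 of the 35 members, and for 26.2% of all tested genes. The median deviation of the members from their smooth mean was 0.089, 0.13, 0.032 and 0.092 on the log2 scale in structured 1 to 4, and -0.0042, 0.013, 0.0085 and -0.0059 in smooth 1 to 4. In all tested genes the structured libraries were at 0.0094 to 0.013. Without structured 3, edgeR called 170 of 16414 tested genes higher, 4 of them members. These were Fen1, Cdc45, Pcna and Rfc3, at edgeR adjusted p-values of 0.0270, 0.0424, 0.0480 and 0.0378. Without smooth 4, structured 2 or structured 4 edgeR called no member.

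**Figure D4:**
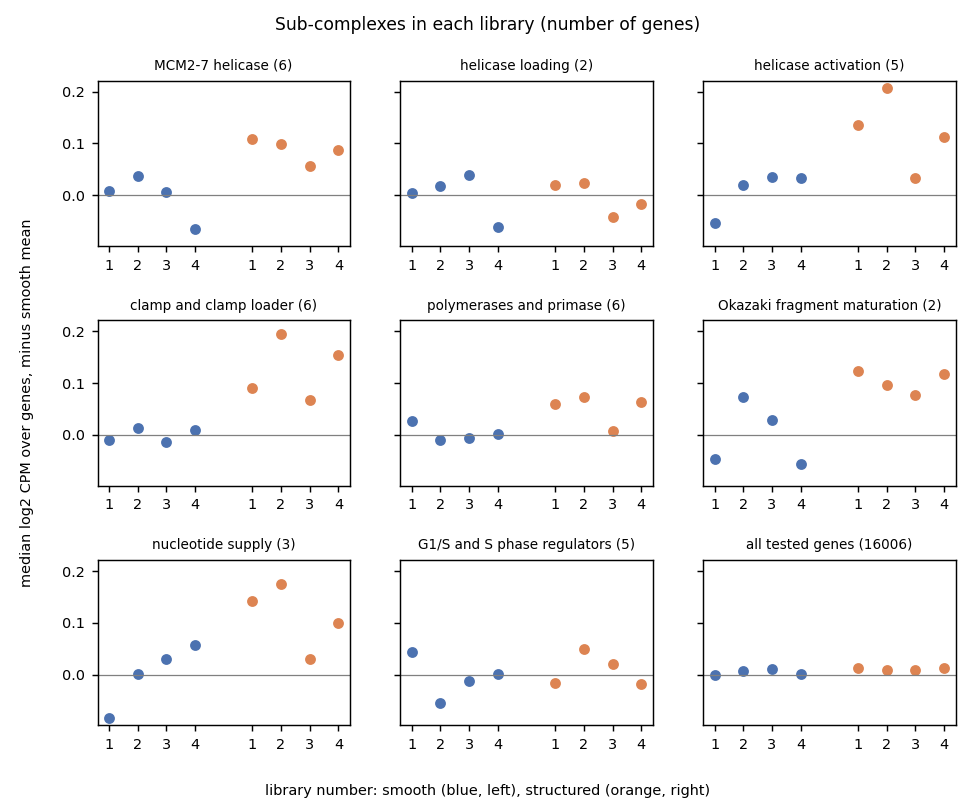
Median over the genes of each sub-complex of log2 CPM minus the mean of the 4 smooth libraries, for each library (smooth blue, structured orange), and for all 16006 tested genes. All structured points lie above the smooth ones for the Mcm helicase, the clamp and loader and, narrowly, Okazaki fragment maturation. Structured 3 falls within the smooth range for helicase activation, nucleotide supply and polymerases, and all tested genes stay near 0.

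**Figure D5:**
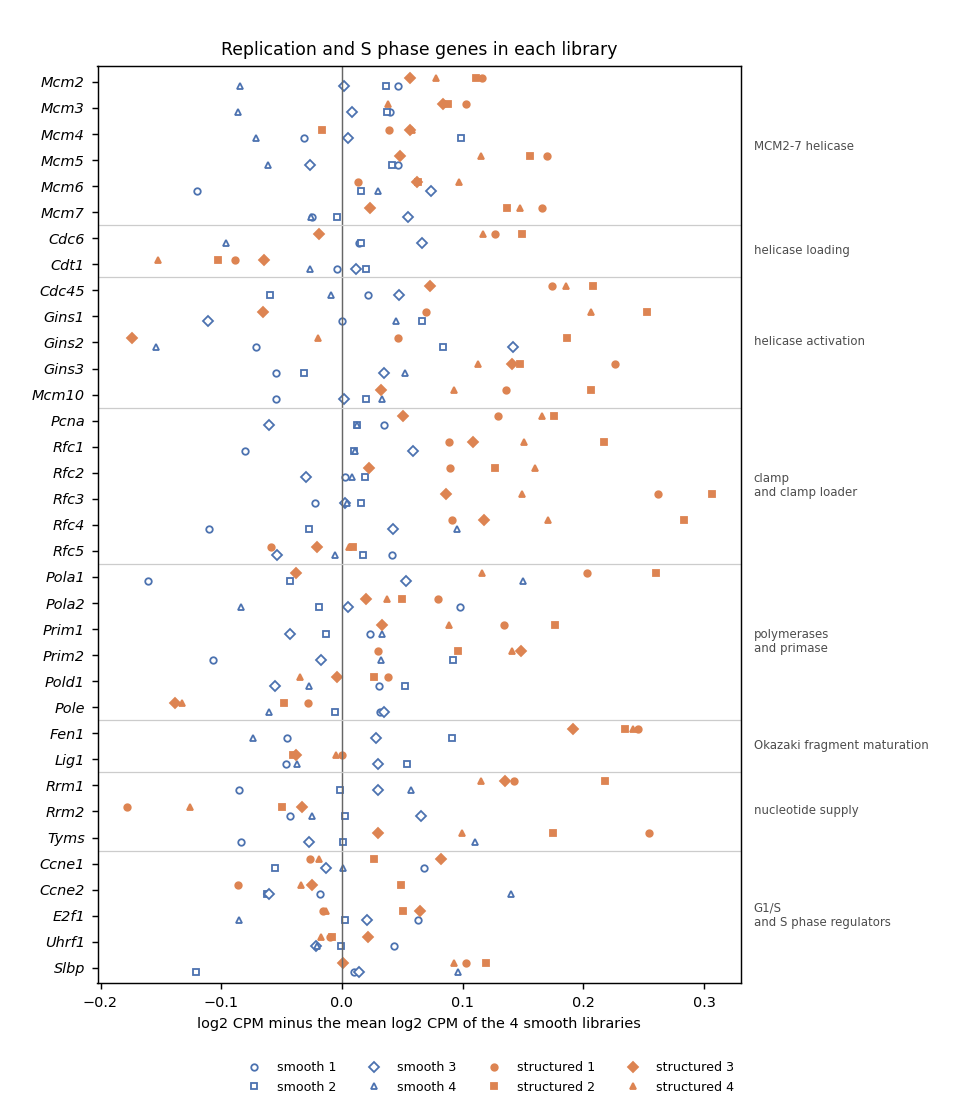
Each of the 35 genes in each of the 8 libraries, as log2 CPM minus the mean log2 CPM of the smooth libraries. Open blue symbols are smooth and filled orange symbols structured libraries, with the same symbol shape for the same library number. For Fen1, Rfc3 and Rrm1 the colours separate, for Cdt1 they separate in the other direction, and for the 5 regulators they mix.

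Marker lists of other cells were read in the same libraries. Of 17 neutrophil markers in the table, 8 could be tested and 6 of these were called higher, beside 1.01% of all tested genes. Mmp8, Ngp, Chil3 and S100a9 were at 0 to 0.0693 CPM in the smooth libraries. They could pass the filter on low counts only through the structured libraries, so the count of higher markers was partly set by the filter. The summed level of the 17 markers was 59.5 to 69.8 CPM on smooth and 71.6, 129, 127 and 136 CPM in structured 1 to 4. Mmp9 made up most of the smooth sum (53.29 to 63.99 CPM) and lay at 49.0 to 54.1 CPM in the structured libraries. Mmp8 was at 0 in every smooth library and Mpo at 0 in all but structured 3. Of 20 hepatocyte markers none was called (the sum was 389, 119.5, 120.5 and 79.2 CPM in the smooth libraries and 151, 161, 317 and 566 CPM in the structured ones). Of 15 skeletal muscle markers 14 were tested and 3 called lower, beside 2.75% of all tested genes. The sum was 45.2 to 91.9 CPM on smooth and 40.8 to 49.6 CPM on structured PEEK. Acta1, Myh4 and Tnnt3 were at 0 CPM in structured 4, so the filter could pass them only with the help of smooth libraries. The part of these marker transcripts in the values of the replication genes was not tested. With smooth 1, structured 3 and structured 4 left out, the libraries with the highest hepatocyte sums, the median log2 fold change of the members was 0.11, Fen1 had 0.22 (edgeR BH-adjusted p = 0.111) and no member was called. Of 11 macrophage markers Csf1r, Lyz2, Cd68, Cd14, Spi1 and Itgam stood above 117 CPM in every library, and C1qa and Mertk were under 0.4 CPM.

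A further 79 replication and G1/S genes, none of them a member, came from a list of the pathway. All were tested, with 1 called higher and 1 lower, beside 1.01% and 2.75% of all tested genes. Their median log2 fold change was 0.041. At an unadjusted edgeR p under 0.05, 17 were higher and 6 lower, where 8.14% and 10.6% of all tested genes were. The groups did not overlap for 13 higher and 5 lower, beside 5.19% and 7.03% of all tested genes, so the counts of lower genes were no greater than that background. Dnmt1, the maintenance DNA methyltransferase, stood at 768, 741, 738 and 721 CPM in the smooth libraries and 651, 634, 657 and 648 CPM in the structured ones. Every structured value was below every smooth one, and Dnmt1 fell by 0.20 ± 0.031 on the log2 scale (SE, edgeR adjusted p = 0.0123, and 0.0508 without structured 4). Its log2 fold change was -0.11 after removal of the GC and length trend (edgeR adjusted p = 0.0471). Dctpp1, which hydrolyses dCTP and its analogs, stood at 45.9, 45.2, 40.0 and 44.6 CPM in the smooth libraries and 52.7, 56.3, 49.2 and 53.4 CPM in the structured ones, without overlap. It rose by 0.27 ± 0.058 (edgeR BH-adjusted p = 0.0321), and its adjusted p was 0.0601 to 0.0990 when any 1 library other than smooth 1 or structured 3 was left out.

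Next by p were Tk1, the thymidine kinase of S phase (0.18 ± 0.047, SE; edgeR BH-adjusted p = 0.0593), the histone chaperone Nasp (0.19 ± 0.052; 0.0656), Cdk4, the kinase of D-type cyclins (0.12 ± 0.034; 0.0858), and Gmnn, the inhibitor of Cdt1 (0.18 ± 0.053; 0.0898). Gmnn stood at 56.9, 62.1, 56.3 and 60.8 CPM in the smooth libraries and 65.4, 72.4, 63.6 and 66.0 CPM in the structured ones. Its groups did not overlap, and its log2 fold change was 0.11 after removal of the GC and length trend (edgeR adjusted p = 0.246). Genes with negative values at an unadjusted p under 0.05, named after their values were seen, were E2f3 (-0.18), E2f8 (-0.17), Mcm9 (-0.23), Ccnd2 (-0.27) and Rb1 (-0.17).

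Histone genes can be read only in part, since most replication-dependent histone mRNAs carry no poly(A) tail, the libraries were made from poly(A) RNA, and near-identical copies may share reads. Of 50 tested, none passed by edgeR, with 4 higher (8.14% of all tested genes) and none lower (10.6%) at an unadjusted p under 0.05. DESeq2 called 2 higher, H2bc8 and H1f0, where it called 3.45% of all tested genes higher. The counts of higher genes were near the background, and the count of lower genes was below it. The median log2 fold change of 0.081 was 0.037 after removal of the GC and length trend. H1f0, a linker histone with a poly(A) mRNA, stood at 183.5, 169, 147 and 142.5 CPM in the smooth libraries and 186, 184, 173 and 194 CPM in the structured ones, with overlap (0.20 ± 0.074, SE; edgeR BH-adjusted p = 0.165). It was past the threshold without smooth 1, at 0.0462. H2bc8 (0.49 ± 0.16), H1f2 (0.15 ± 0.063), Hist1h4n (1.40 ± 0.47, at under 1 CPM), H4c14 (-0.93 ± 0.64, also under 1 CPM) and H2bc4 (-0.14 ± 0.11) did not pass by edgeR.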

How the data were processed

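RNA of 8 libraries of RAW264.7 cells was selected for poly(A) and sequenced as strand-marked read pairs, per the labels' protocols. The submitters' processing notes name cutadapt 1.9 and HISAT2 2.2.1. No source used here names the counting tool, its strand setting, the annotation or the build, or says whether the adapters' molecular identifiers were used. The counts the authors deposited, per the file headers, are whole numbers that pile up at 4 (8018 values, against 3344 of 3 and 2180 of 5). How the authors made them is not stated, and that they are estimated counts is an inference from their pile-up. The main fit took the whole numbers as they were, and an alternative fit divided them by 4. FPKM values were normalized by the authors, per the file headers. Values are per gene, with no exon or UTR told apart. Positions are those of the table, where 30 of 35 members match GENCODE M21 exactly.

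The whole table was fitted with edgeR 4.0.16 (R 4.3.3). Genes had to pass filterByExpr (minimum count 10), libraries were scaled by TMM, and structured was tested against smooth by the quasi-likelihood F test, with Benjamini-Hochberg (BH) adjustment over 16006 genes and a threshold of 0.05. CPM is relative to the TMM-scaled library total. Alternatives used DESeq2 1.42.0, limma 3.58.1 on counts (voom) and on log2(FPKM + pseudocount), and offsets that took out each library's trend on GC content and length of the longest transcript (known for 99.9% of tested genes). The fits were run on simulated data, where recovery was required only for changes larger than that of any member.

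The members and lists were chosen with earlier results of these data known. All members are named. Library values are given for members past the threshold, the 12 with the smallest p and the most abundant of each sub-complex, and the 6 smallest p of the other 2 lists are named. Partner ratios, exon overlaps and pseudogenes were added after the data had been seen.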

Additional observations from a re-analysis of the deposited data

How the results depend on the processing

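Fen1 was called in every fit that used all 8 libraries. The main test called 1 member, 2 of the 79 other replication genes and 601 of all genes (161 higher, 440 lower). In the same order, the calls were 1, 1 and 189 with no filter on low counts, 3, 4 and 744 with a minimum count of 50, 8, 14 and 1433 with DESeq2 (553 higher, 880 lower), 2, 2 and 588 with voom, 2, 4 and 741 with counts divided by 4, and 3, 5 and 438 after removal of the GC and length trend (226 higher, 212 lower). Limma on log2(FPKM + pseudocount) called 1, 1 and 191 at 0.5, 1, 1 and 242 at 0.1, and 1, 1 and 187 at 1. With smooth 1, structured 3 and structured 4 left out, a choice made after seeing the data, the calls were 0, 0 and 186. With 1 library left out they ran from 0 to 4 members, 0 to 3 other replication genes and 88 (without structured 4) to 597 genes. The causes of these shifts were not tested. Removal of the GC and length trend moved the median log2 fold change of the Mcm helicase from 0.083 to 0.119 and of the loaders from -0.0039 to 0.0359, and turned the sign of Rfc5 (0.0177), Lig1 (0.0208) and Uhrf1 (0.0475). Uhrf1 was at 0.0014, 0.0015 and 0.0014 on log2(FPKM + pseudocount) at 0.5, 0.1 and 1. With the 3 libraries left out, Mcm4 was at -0.0012, Mcm6 at -0.0024 and Uhrf1 at 0.0048. Leaving out 1 library turned the sign of members near 0, with ranges of -0.0515 to 0.0687 for Gins2, -0.0124 to 0.0253 for Pold1, -0.0069 to 0.0385 for Ccne1, -0.0508 to 0.0231 for Ccne2, -0.0073 to 0.0419 for E2f1 and -0.0124 to 0.0106 for Uhrf1. A fit with the replicate number as a block called 1 member and 499 genes, and Nasp passed (adjusted p = 0.0452). Deviations of same-numbered libraries correlated at 0.0546, 0.3974, 0.1547 and 0.0254, and not every library correlated best with its own number, so the number was not taken as a pairing. Depth limited no member, but the antisense gene of Fen1 and the histones under 1 CPM rest on few counts.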
